A study of Mus musculus with 33 samples.

Results

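Trem2, the receptor by which microglia sense lipids and debris around amyloid plaques, was followed with its adaptor and effector genes and with late genes of plaque-associated microglia in 33 RNA sequencing libraries of sorted mouse microglia. The set held 10 named genes among the 54146 gene identifiers of the count files: Trem2, Tyrobp, Syk, Plcg2, Itgax, Spp1, Gpnmb, Igf1, Cd9 and Cd63. They were chosen by name and pathway role, with earlier results of these data known, and all 10 were found. Their levels were described in 10 groups, and the question put to the data was how the effect of the 5xFAD transgenes differed with and without Irf8, the gene of a myeloid transcription factor.

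All mice were labelled C57BL/6 and female. At 9 months of age there were WT, IRF8KO (germline loss of Irf8, so all cells lack it), 5xFAD and 5xFAD/IRF8KO mice, with 3 libraries each. 5xFAD mice carry human amyloid precursor protein and presenilin transgenes with familial Alzheimer's disease mutations, driven by a neuronal promoter. At 3 months there were WT and IRF8KO mice (4 libraries each) and, in a separate experiment, WT and Batf3KO mice (3 each). The conditional knockout at 3 months compared mice with the genotype label IRF8flox (3 libraries, called flox here) with mice labelled IRF8floxCx3cr1CreERT2 (4 libraries, called Cre). Both flox and Cre mice received tamoxifen on 5 consecutive days in the postnatal period. Cx3cr1 drives Cre in microglia and in other cells that express it, and the design text names a Rosa26LSL-EYFP reporter and sorting of YFP-positive cells for this experiment. The labels speak of microglia from each brain but number no animals, so p-values measure the spread between these libraries.

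As background, Trem2 has almost no signalling tail of its own and works through Tyrobp (DAP12), whose phosphorylated activation motif recruits the kinase Syk, which in turn acts on phospholipase C gamma 2, the product of Plcg2. In amyloid models, microglia next to plaques switch on a set of genes in steps, and the late step depends on Trem2. Itgax (CD11c), Spp1 (osteopontin), Gpnmb, Igf1, Cd9 and Cd63 are commonly counted among these late genes.

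The libraries held 605376 to 18357762 counts in genes, and the shallowest were WT replicates 2 and 3 and 5xFAD replicate 3 at 9 months. Irf8 was 500 to 583 CPM (counts put on 1 depth by TMM factors over all 33 libraries, so that libraries can be compared) in WT and 15.8 to 138 CPM in IRF8KO at 9 months. The labels do not say which exons the allele lacks. The library labelled Cre replicate 1 went against its label, with 1120 CPM of Irf8 against 951 to 1180 CPM in flox and 346 to 480 CPM in the other Cre libraries. Markers of other cells differed between groups of the same experiment. The 13 neutrophil markers summed to 0.425 to 2.07 CPM in WT mice and 0.325 to 1.91 CPM in 5xFAD at 9 months, but to 56800 to 107000 CPM in IRF8KO mice and 86000 to 167000 CPM in 5xFAD/IRF8KO. The 15 homeostatic microglial markers, of which all were detected in WT, summed to 52800 to 64400 CPM in WT mice and 65000 to 77000 CPM in 5xFAD, against 5810 to 11700 CPM and 9820 to 10700 CPM in the groups without Irf8. Y-linked transcripts were found in 16 libraries despite the labelled sex, including all 3 WT and 1 of 3 5xFAD libraries at 9 months.

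Promoter sequences are shown for 4 genes on which the results below turn: Trem2, which was lower in every germline Irf8 comparison, Cd63, whose 5xFAD effect differed by Irf8, Spp1, which had its highest mean without Irf8, and Itgax, which changed in Batf3KO. Each line gives the 250 bases before the start site in 5′ to 3′ direction, from RefSeq on GRCm38.p6, all on the plus strand. Capitals mark matches to the motifs searched. The windows are chr17:48346151-48346400 for Trem2, chr10:128909095-128909344 for Cd63, chr5:104434861-104435110 for the first Spp1 entry and chr7:128129300-128129549 for Itgax. In GENCODE M21 the Trem2 gene spans chr17:48346401-48354147, Spp1 chr5:104435118-104441050 and Itgax chr7:128129547-128150657, so their windows end at or within a few bases of the start of the gene. Cd63 spans chr10:128900989-128912822 there, so its RefSeq window lies within the longer gene model.
Trem2: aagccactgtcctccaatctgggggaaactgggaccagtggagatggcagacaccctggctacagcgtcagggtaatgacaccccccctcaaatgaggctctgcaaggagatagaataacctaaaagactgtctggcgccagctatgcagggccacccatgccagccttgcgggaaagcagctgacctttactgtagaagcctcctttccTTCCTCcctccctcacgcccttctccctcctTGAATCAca
Cd63: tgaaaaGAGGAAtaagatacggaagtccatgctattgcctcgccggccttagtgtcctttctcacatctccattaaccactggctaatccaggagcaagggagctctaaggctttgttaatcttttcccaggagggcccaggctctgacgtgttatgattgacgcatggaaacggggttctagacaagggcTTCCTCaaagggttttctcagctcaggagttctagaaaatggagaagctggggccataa
Spp1: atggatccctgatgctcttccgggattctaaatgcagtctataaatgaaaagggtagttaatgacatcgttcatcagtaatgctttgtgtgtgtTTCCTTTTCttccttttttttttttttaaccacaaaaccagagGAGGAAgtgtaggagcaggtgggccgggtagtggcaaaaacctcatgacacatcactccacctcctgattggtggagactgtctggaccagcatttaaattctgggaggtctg
Itgax: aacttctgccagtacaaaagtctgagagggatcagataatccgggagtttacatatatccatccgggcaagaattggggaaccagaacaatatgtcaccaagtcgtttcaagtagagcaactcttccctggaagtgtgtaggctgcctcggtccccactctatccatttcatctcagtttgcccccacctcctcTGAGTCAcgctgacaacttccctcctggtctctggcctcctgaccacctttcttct
Motifs were searched on both strands in 11 promoter entries of 9 of the genes and in all 32851 RefSeq promoters of the same length. GAGGAA, the core of sites bound by PU.1, the Ets factor that pairs with IRF8, was present in 23.3% of all promoters and in those of Trem2, Cd63, Spp1, Igf1 and Syk. TGANTCA, the motif of AP-1 leucine zipper factors, the family of BATF3, was present in 6.75% of all promoters and in those of Trem2, Itgax and Igf1. The composite Ets and interferon regulatory factor form GGAANNGAA was in 6.99% of all promoters and in those of Gpnmb and Igf1, and it can share bases with GAGGAA. GAAANNGAA, a core of interferon response elements, was in 7.13% of all promoters and in those of Cd9 and Spp1. The E-box forms CACGTG and CATGTG were in 6.02% and 12.3% of all promoters and in those of Plcg2 and Cd9, respectively. A match is a description of these letters only.

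Scaled by exon length, the genes spanned a wide range of levels in WT microglia at 9 months. Tyrobp had the highest mean, 1910 ± 356 RPKM (CPM per kilobase of exon, SD, n = 3). Cd9 followed with 352 ± 54.2 RPKM and Trem2 with 207 ± 48.3 RPKM. Cd63 (53.8 ± 14.0 RPKM), Plcg2 (42.6 ± 10.7 RPKM) and Syk (13.6 ± 1.49 RPKM) were intermediate. Itgax (1.07 ± 0.167 RPKM), Spp1 (0.882 ± 0.764 RPKM) and Igf1 (0.0231 ± 0.0216 RPKM) were near the floor, and Gpnmb had 0 counts in all 3 WT libraries. The receptor, its adaptor and the tetraspanins were therefore well measured at baseline, while Spp1, Igf1 and Gpnmb rested on few or no counts in WT.

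**Figure D1:**
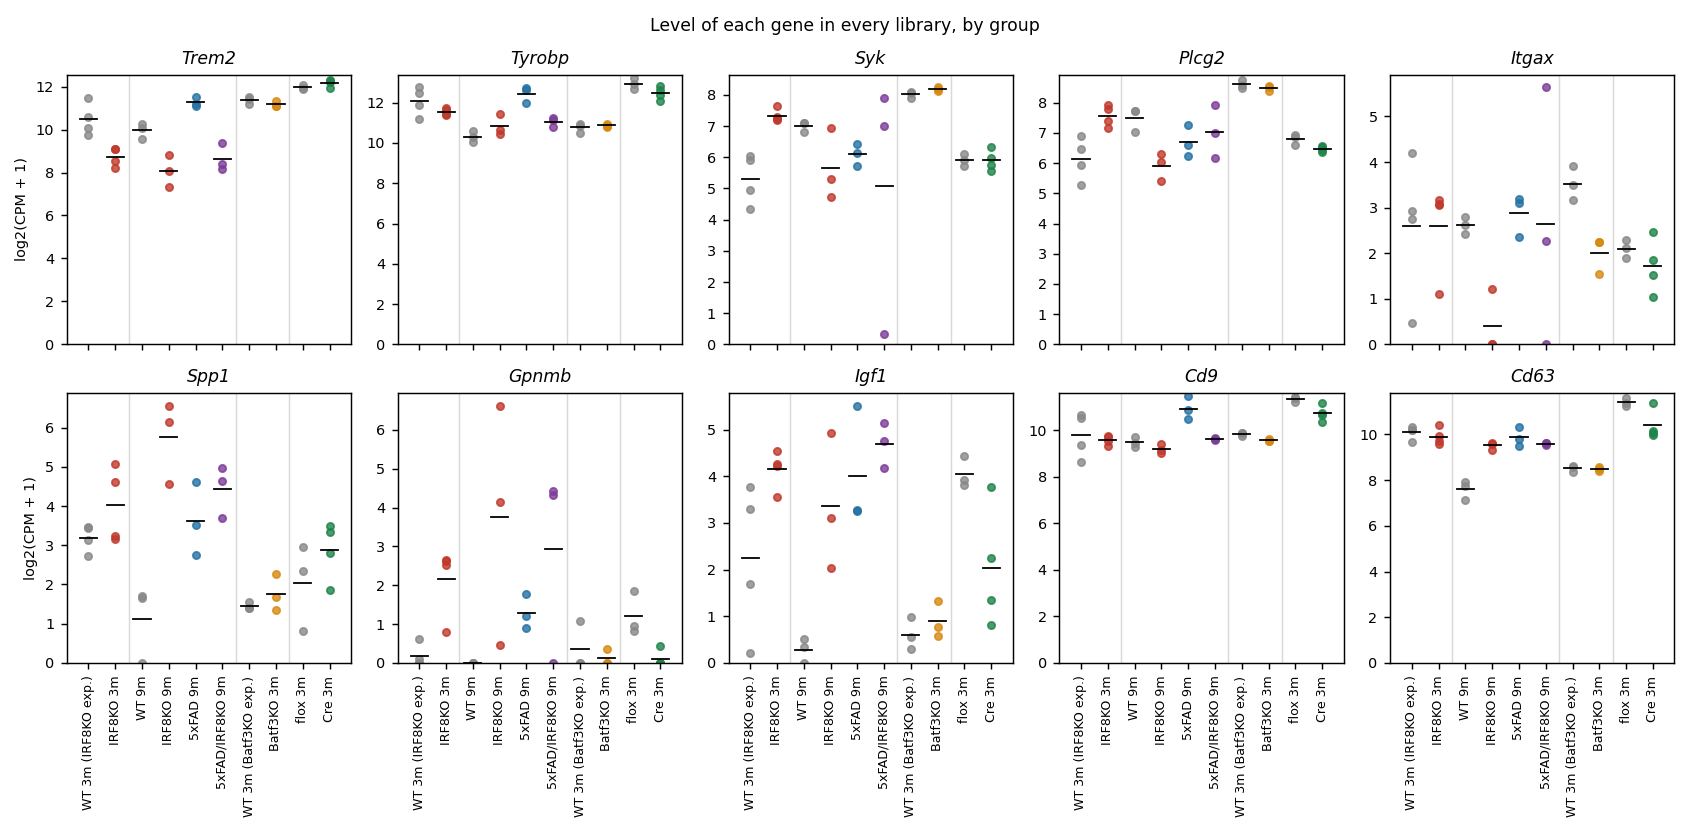
Level of each gene as log2(CPM + 1) in every library (points) with the group mean of these log values (bar), in the 10 groups on the horizontal axis; grey lines separate the 4 experiments. Trem2 lay lower in the 3 groups that lack Irf8 in the germline (162 to 660 CPM) than in all the other groups (758 CPM or more), and Gpnmb was at 0 in all 3 WT libraries at 9 months.

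With Irf8 present, the 5xFAD transgenes went with higher Tyrobp, Cd63, Cd9 and Igf1 at 9 months. These 4 of the 10 genes passed the test (edgeR quasi-likelihood, adjusted p under 0.05, all 12 libraries of this age in 1 model), all higher, against 1.99% of all 14604 genes tested and 1.81% called higher. In the groups without Irf8, 0 of the 10 passed in the same model, against 0.164% of all genes. Of the 10, 2 (Plcg2 and Itgax) had an unadjusted p under 0.05, as did 1853 of all 14604 genes. DESeq2 also called 0 of the 10 there, with 852 genes called in all. A model of all 33 libraries called Plcg2 and Itgax, with 1452 genes called in all. Limma voom called 0 genes in all, so its 0 of the 10 says nothing particular to these genes. The median log2 change of the 10 was 1.76 with Irf8 and 0.47 without it, where the median of all genes was 0 in both. In these bulk libraries, fewer microglia and less RNA of a gene per cell cannot be told apart.

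The 12 libraries at 9 months shared 1 estimate of the spread. In a model of the 6 WT and 5xFAD libraries alone, 8 of 9 genes tested passed, against 43.5% of all genes, 20.8% of all higher and 22.7% of all lower. Trem2, Tyrobp, Spp1, Igf1, Cd9 and Cd63 were higher and Syk and Plcg2 lower. The number was 8 again when each of the 6 libraries was left out in turn. With a background this high, the count of the 10 is given as a description only.

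Trem2 itself was 1090, 1220 and 758 CPM in WT mice and 2310, 2200 and 2930 CPM in 5xFAD. All 5xFAD libraries lay above all WT libraries. The log2 fold change of Trem2 was 1.2 (SE 0.39), which missed the threshold in the 12-library model (adjusted p = 0.179) and passed it in the 6-library model (1.13, adjusted p = 0.000403), with limma voom (1.06, adjusted p = 2.57e-05), without the low-count filter (adjusted p = 0.0395) and in the 33-library model (adjusted p = 0.0358). Without Irf8, Trem2 was 445, 162 and 266 CPM in IRF8KO mice and 289, 335 and 660 CPM in 5xFAD/IRF8KO. These groups overlapped, and the log2 fold change was 0.55 (SE 0.385, adjusted p = 0.626). The difference between the 2 effects was -0.65 (SE 0.544, adjusted p = 0.666), so a different Trem2 response was not shown.

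Tyrobp, the signalling adaptor, was 1250, 1520 and 1050 CPM in WT mice and 4080, 6420 and 6690 CPM in 5xFAD. Every 5xFAD library was above every WT library, and the log2 fold change was 2.09 (SE 0.306, adjusted p = 0.0123). Without Irf8, the values were 2770, 1580 and 1400 CPM in IRF8KO mice and 2220, 2370 and 1750 CPM in 5xFAD/IRF8KO. The latter groups overlapped, with a log2 change of 0.13 (SE 0.294, adjusted p = 0.926). The effect without Irf8 was smaller by 1.97 on the log2 scale (difference -1.97, SE 0.42), which missed the threshold (adjusted p = 0.0632) and passed it with DESeq2 (adjusted p = 0.00355), without the low-count filter, in the 33-library model and without IRF8KO replicate 3 (adjusted p = 0.0367). Trem2 and its adaptor thus had means that were higher in 5xFAD with Irf8, but only the adaptor passed in the 12-library model.

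The effectors had lower means in 5xFAD than in WT, and neither was called in the 12-library model. Syk, the kinase recruited by Tyrobp, was 135, 111 and 136 CPM in WT mice and 85.9, 70.0 and 51.2 CPM in 5xFAD, with no overlap. The Syk change was -0.95 (SE 1.16, adjusted p = 0.955) in the 12-library model and -1.03 (adjusted p = 0.000403) in the 6-library model. Without Irf8, Syk was 122, 38.4 and 25.2 CPM in IRF8KO mice and 127, 237 and 0.267 CPM in 5xFAD/IRF8KO. The last value stood for 3 counts in a library as deep as the other 5xFAD/IRF8KO libraries, so this group ran from the highest to the lowest Syk level of the age. Plcg2, the phospholipase downstream of Syk, was 210, 130 and 208 CPM in WT mice and 153, 96.5 and 75.1 CPM in 5xFAD. The groups overlapped, and the Plcg2 change of -0.83 (SE 0.444, adjusted p = 0.579) passed only in the 6-library model (-0.92, adjusted p = 0.00345) and with limma voom. Plcg2 was 41.5, 64.7 and 77.0 CPM in IRF8KO mice and 128, 240 and 70.3 CPM in 5xFAD/IRF8KO. Its change without Irf8 had the opposite sign, 1.23 (SE 0.446, adjusted p = 0.259), and the difference of 2.06 (SE 0.629) did not pass (adjusted p = 0.153) except with DESeq2 (adjusted p = 0.046) and in the 33-library model (adjusted p = 0.0175).

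Cd63 was the only one of the 10 whose 5xFAD effect differed with Irf8 in the 12-library model, against 0.438% of all genes and 0.247% called lower. This lysosomal and exosomal tetraspanin was 211, 242 and 141 CPM in WT mice and 710, 886 and 1290 CPM in 5xFAD, a log2 change of 2.20 (SE 0.269, adjusted p = 0.0083). It was 798, 641 and 777 CPM in IRF8KO mice and 741, 798 and 789 CPM in 5xFAD/IRF8KO. The groups with Irf8 did not overlap, while those without Irf8 did and both lay within or just below the range of 5xFAD. The change without Irf8 was 0.05 (SE 0.256, adjusted p = 0.975), and the difference was -2.15 (SE 0.367, adjusted p = 0.0339). That call was lost with limma voom (adjusted p = 0.109) and when any WT library, 5xFAD replicate 2 or 3, or 5xFAD/IRF8KO replicate 1 or 2 was left out (adjusted p = 0.0589 to 0.156). With Y-linked transcripts as a covariate the difference was -2.62 (adjusted p = 0.248).

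Cd9, another tetraspanin, was 699, 840 and 621 CPM in WT mice and 1420, 1870 and 2840 CPM in 5xFAD, with no overlap (log2 change 1.42, SE 0.255, adjusted p = 0.0193). Without Irf8 it was 680, 576 and 515 CPM in IRF8KO mice and 794, 807 and 760 CPM in 5xFAD/IRF8KO. The latter groups did not overlap either, but the log2 change of 0.40 (SE 0.25) was not called (adjusted p = 0.579). The difference of -1.03 (SE 0.354) did not pass (adjusted p = 0.196). Part of the Cd9 exons, 218 bases, is shared with the annotated transcript Gm26728 on the other strand, and the counts were not stranded.

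The calls of Tyrobp, Cd9, Igf1 and Cd63 in 5xFAD rested on few libraries of the 12-library model. Leaving out WT replicate 1 or 3, or 5xFAD replicate 2, left 0 of the 10 called. Leaving out WT replicate 2 or 5xFAD replicate 3 left 1. With Y-linked transcripts as a covariate, Cd63 alone passed. No change of sign occurred for these 4 genes in that comparison.

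**Figure D2:**
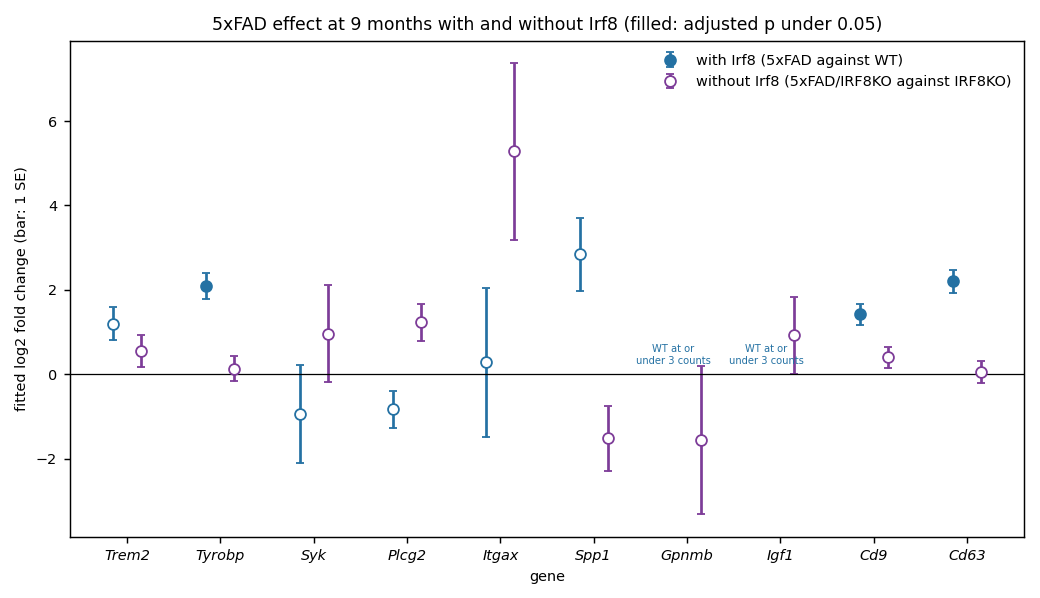
Fitted log2 fold change with 1 SE (bars) of the 5xFAD effect at 9 months for each gene, with Irf8 (blue) and without it (purple); filled points had an adjusted p under 0.05. The filled points are Tyrobp at 2.09, Cd9 at 1.42 and Cd63 at 2.20 with Irf8, and no gene is filled without Irf8; Gpnmb and Igf1 have no blue point because WT held 0 and 3 counts (Igf1 passed the test).

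The secreted and surface late genes were close to the floor in WT. Igf1, a growth factor, was 0.263, 0.425 and 0 CPM in WT (3 counts in all) and 8.54, 8.68 and 44.5 CPM in 5xFAD. The ratio was 44.8 (95% counting interval 15.1 to 219, which covers counting error only), and the test passed (adjusted p = 0.0348), though not when any 1 of the 6 libraries was left out (adjusted p = 0.0546 to 0.252). Igf1 was 3.08, 7.56 and 29.6 CPM in IRF8KO mice and 17.2, 34.4 and 25.9 CPM in 5xFAD/IRF8KO, which overlapped (log2 change 0.92, SE 0.922, adjusted p = 0.763). The test of the difference gave an adjusted p of 0.144, and 0.0224 with DESeq2.

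Spp1, a matrix protein secreted by reactive microglia, was 2.24, 2.12 and 0 CPM in WT mice and 5.77, 10.4 and 23.4 CPM in 5xFAD. The groups did not overlap, and the log2 change of 2.85 (SE 0.865) did not pass (adjusted p = 0.141) except with DESeq2, limma voom, the 33-library model and the 6-library model (2.56, adjusted p = 0.00274). Without Irf8, Spp1 was 22.7, 93.0 and 69.9 CPM in IRF8KO mice and 30.2, 12 and 23.8 CPM in 5xFAD/IRF8KO. The fitted change had the opposite sign, -1.52 (SE 0.771, adjusted p = 0.455), and the difference of -4.38 (SE 1.16) did not pass (adjusted p = 0.108) but did with DESeq2 (adjusted p = 0.00463), without the low-count filter and in the 33-library model. Spp1 shares 309 exon bases with the annotated gene Gm42793 on the same strand, so its counts may be split.

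Gpnmb, a lysosomal glycoprotein, had 0 counts in WT and 1.30, 0.851 and 2.39 CPM in 5xFAD, at least 4.68-fold higher when WT is set to 3 counts over the group (adjusted p = 0.598). It was 0.385, 16.7 and 97.4 CPM in IRF8KO mice and 19.2, 20.7 and 0 CPM in 5xFAD/IRF8KO, so single libraries of both groups were near 0. Itgax, an integrin subunit, was 4.34, 5.95 and 5.18 CPM in WT mice and 7.56, 4.09 and 8.13 CPM in 5xFAD (log2 change 0.28, SE 1.76, adjusted p = 1.0). It was 0, 1.31 and 0 CPM in IRF8KO mice and 0, 48.8 and 3.83 CPM in 5xFAD/IRF8KO. The Itgax values without Irf8 came mostly from 5xFAD/IRF8KO replicate 2, and the change of 5.28 (SE 2.09) did not pass (adjusted p = 0.3).

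Loss of Irf8 itself at 9 months went with lower Trem2 and Plcg2 and with higher Cd63, Spp1, Igf1 and Gpnmb. These 6 of the 10 passed, 4 higher and 2 lower, against 28.3% of all genes, 19.6% higher and 8.68% lower. The log2 change was -1.98 for Trem2 (SE 0.398, adjusted p = 0.00322) and -1.74 for Plcg2 (SE 0.453, adjusted p = 0.0133). No WT and IRF8KO library overlapped for either gene, and the Plcg2 call was lost with limma voom (adjusted p = 0.065). Cd63 rose by 1.74 (SE 0.265, adjusted p = 0.000482) and Spp1 by 5.04 (SE 0.929, adjusted p = 0.00181). Igf1 was 50.5 times as high by counts (interval 17.1 to 246, adjusted p = 0.00718), and leaving out WT replicate 1 ended this call (adjusted p = 0.0525). Gpnmb was at least 145-fold higher, with most counts in IRF8KO replicate 3 and a call that was lost without that library (adjusted p = 0.077) or without any WT library (adjusted p = 0.0749 to 0.118). Tyrobp (0.43, adjusted p = 0.308), Cd9 (-0.44, adjusted p = 0.206) and Syk (-1.22, adjusted p = 0.478) were not called. Itgax was not called either (-3.68, SE 1.98, adjusted p = 0.187), though all IRF8KO libraries lay below all WT libraries, on few counts.

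In mice that carried 5xFAD, loss of Irf8 went with lower Trem2, Tyrobp and Cd9. These 3 passed, all lower, against 27.8% of all genes and 9.72% called lower. Trem2 fell by 2.63 (SE 0.408, adjusted p = 0.000578), Tyrobp by 1.54 (SE 0.301, adjusted p = 0.00277) and Cd9 by 1.47 (SE 0.255, adjusted p = 0.00124). For each of the 3 genes, all 5xFAD/IRF8KO libraries lay below all 5xFAD libraries, and the values are those given above. Cd63, Igf1, Spp1, Gpnmb, Syk, Plcg2 and Itgax overlapped between these groups and did not pass.

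The neutrophil markers named above were higher with loss of Irf8 in both comparisons, as were the summed monocyte markers (0 to 2.97 CPM in WT, 6640 to 18200 CPM in IRF8KO, 0.681 to 2.03 CPM in 5xFAD and 14300 to 17400 CPM in 5xFAD/IRF8KO) and border macrophage markers (6.22 to 12.3, 746 to 864, 12.6 to 31.3 and 1210 to 1350 CPM in the same order). All 13 neutrophil markers were at 5 CPM or more in both groups without Irf8. In WT, 8 of them were at 0 in every library, among them Lcn2, Ngp, Camp and Elane, and in 5xFAD 4 were, among them S100a9 and Elane. The part of these cells in the changes of the 10 genes with Irf8 loss was not tested. For 5xFAD against WT, both groups had neutrophil and monocyte markers near 0, but the sums of other lists were higher in 5xFAD with no overlap. The 8 endothelial markers summed to 466 to 553 CPM in WT and 873 to 1070 CPM in 5xFAD, with Cldn5, Ly6c1 and Slco1a4 at 0 in both. The 8 astrocyte markers summed to 140 to 160 CPM and 188 to 258 CPM, and the border macrophage sums are those given above. Their part in the 5xFAD changes was not tested. Loss of Irf8 also went with higher sums of red cell markers (0.131 to 33.2 CPM in WT, 25100 to 188000 CPM in IRF8KO), oligodendrocyte markers (171 to 187 and 6450 to 11800 CPM), astrocyte markers (140 to 160 and 2120 to 3170 CPM) and neuronal markers (1.71 to 4.67 and 649 to 2750 CPM). In 5xFAD/IRF8KO the same 4 sums were 15900 to 94500, 5560 to 6420, 1340 to 1920 and 506 to 1700 CPM, each above all 5xFAD libraries, and their part was not tested.

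**Figure D3:**
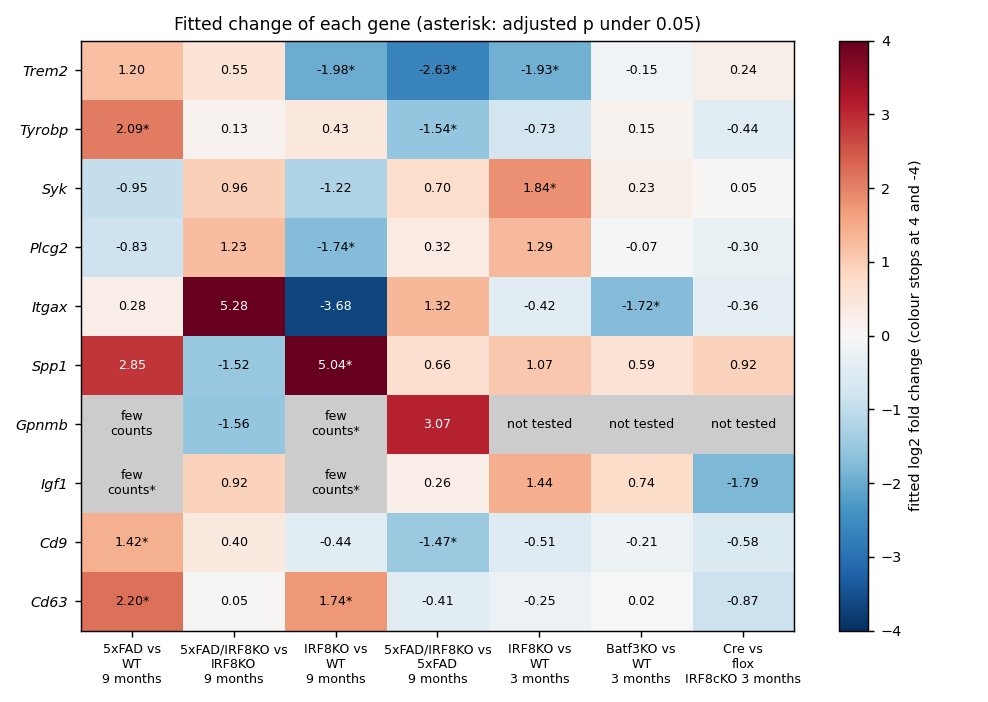
Fitted log2 fold change of each gene (rows) in 7 comparisons (columns); asterisks mark an adjusted p under 0.05, grey cells with "few counts" had 3 counts or fewer in 1 group, and grey cells marked "not tested" did not pass the filter on low counts. Trem2 was called lower in the 3 columns that compare germline Irf8 loss with its control (-1.98, -2.63 and -1.93), and the Batf3KO column has a single call, Itgax at -1.72.

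At 3 months, Trem2 was again lower without Irf8 and Syk was higher. These were 2 of the 9 genes tested, against 7.39% of all genes, 4.15% higher and 3.24% lower, and Gpnmb was not tested for low counts. Trem2 was 2800, 1540, 1090 and 858 CPM in WT mice and 296, 372, 541 and 538 CPM in IRF8KO, with no overlap (log2 change -1.93, SE 0.439, adjusted p = 0.022). Leaving out any 1 IRF8KO library ended the Trem2 call (adjusted p = 0.054 to 0.0951). Syk was 19.3, 30.2, 64.7 and 59.5 CPM in WT mice and 197, 147, 155 and 149 CPM in IRF8KO. All IRF8KO libraries were higher (1.84, SE 0.382, adjusted p = 0.0143), and the call was lost without IRF8KO replicate 1 (adjusted p = 0.0609) and in the 33-library model (adjusted p = 0.0531).

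Plcg2 was 60.1, 37.4, 119 and 86.7 CPM in WT mice and 219, 168, 141 and 242 CPM in IRF8KO at 3 months. These did not overlap either, and the change of 1.29 (SE 0.37) missed the threshold (adjusted p = 0.0532). It passed with DESeq2 (adjusted p = 0.0184), with limma voom (0.0134), in the 33-library model (0.00374) and without WT replicate 3 (0.0341). The signs of the Syk and Plcg2 changes were thus positive at 3 months and negative in IRF8KO against WT at 9 months, where Syk was not called. In 5xFAD/IRF8KO against 5xFAD at 9 months they were positive (0.7 and 0.32), and neither was called. The contrast between ages was not tested. The other genes tested overlapped, among them Cd63 (1270, 1180, 824 and 1180 CPM in WT, 754, 1350, 844 and 990 CPM in IRF8KO). Gpnmb, which was not tested, held 6 counts over the 4 WT libraries and 119 over the 4 IRF8KO libraries. Its levels did not overlap (0 to 0.523 CPM in WT, 0.749 to 5.29 CPM in IRF8KO). Both groups held markers of other cells here. The neutrophil sum was 9360 to 65800 CPM in WT mice and 82400 to 206000 CPM in IRF8KO, and the homeostatic sum was 20300 to 40700 CPM and 9330 to 15600 CPM. Monocyte (532 to 3280 and 6420 to 17600 CPM) and border macrophage sums (46.3 to 210 and 1000 to 1500 CPM) were higher in IRF8KO. Endothelial (774 to 1580 and 465 to 629 CPM) and neuronal sums (468 to 870 and 81.4 to 455 CPM) were lower, while the sums of the other cell lists overlapped. Their part in the changes was not tested.

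Loss of Batf3, an AP-1 family protein that works beside IRF8 in dendritic cells, left 8 of the 9 genes tested without a call. The exception was Itgax, 14.0, 8.0 and 10.3 CPM in WT mice and 3.74, 1.90 and 3.78 CPM in Batf3KO, with no overlap. Its change of -1.72 (SE 0.297) passed (adjusted p = 0.00577), against 3.83% of all genes and 2.42% called lower, and was lost in the model of all 33 libraries (adjusted p = 1.0). The 6 dendritic cell markers summed to 9.09 to 22.0 CPM in WT mice and 12.3 to 17.4 CPM in Batf3KO, so the sums overlapped. Neutrophil, monocyte, lymphocyte, endothelial and homeostatic sums overlapped too. Sums were lower in Batf3KO with no overlap for border macrophage (9.24 to 14.0 and 5.22 to 8.57 CPM) and oligodendrocyte markers (505 to 553 and 353 to 440 CPM). The same held for astrocyte (241 to 260 and 210 to 228 CPM), neuronal (11.1 to 16.1 and 4.47 to 5.58 CPM) and red cell markers (107 to 213 and 17.8 to 103 CPM). Their part in the Itgax change was not tested. Trem2 was 2930, 2780 and 2310 CPM in WT mice and 2210, 2200 and 2550 CPM in Batf3KO, which overlapped (-0.15, SE 0.0764, adjusted p = 0.331). Cd9 was 941, 948 and 870 CPM against 752, 756 and 785 CPM. These did not overlap, and the Cd9 change of -0.21 (SE 0.0632) did not pass with edgeR (adjusted p = 0.0876) but did with DESeq2 (adjusted p = 0.0488) and limma voom (adjusted p = 0.0174). Syk was 237 to 275 CPM in WT mice and 278 to 305 CPM in Batf3KO, with no overlap (0.23, SE 0.0764, adjusted p = 0.123). Tyrobp, Plcg2, Spp1, Igf1 and Cd63 overlapped, and Gpnmb was not tested for low counts.

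In the conditional knockout, 0 of the 9 genes tested passed when the Cre libraries were taken as labelled, against 0% of all 15512 genes. By edgeR, 1407 genes and 3 of the 9 (Igf1, Cd9 and Cd63) had an unadjusted p under 0.05, while DESeq2 called 160 genes and limma voom 257. Cd63 was 2430, 3090 and 2640 CPM in flox and 2670, 1010, 1140 and 1070 CPM in Cre replicates 1 to 4. Replicate 1, the library with flox-like Irf8, was the high one and lay within the flox range. Cd9 was 2790, 2410 and 2700 CPM in flox and 2300, 1620, 1700 and 1320 CPM in Cre. Igf1 was 13.1, 20.6 and 14.1 CPM in flox and 12.7, 3.74, 1.54 and 0.751 CPM in Cre. For both genes, Cre replicate 1 was the highest Cre library and lay just below the flox range. Plcg2 was 94.9 to 122 CPM in flox and 81.8 to 94.0 CPM in Cre, with no overlap (-0.3, SE 0.164, adjusted p = 0.662). Gpnmb was not tested for low counts. It held 37 counts in flox and 3 in Cre (ratio 0.0558, counting interval 0.011 to 0.176). Tyrobp, Syk, Itgax and Spp1 overlapped.

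Without Cre replicate 1, these 3 of 9 genes passed, all lower, against 6.24% of all genes and 2.5% called lower. Cd63 fell by 1.29 (adjusted p = 6.17e-05), Cd9 by 0.72 (adjusted p = 0.0192) and Igf1 by 2.93 (adjusted p = 4.96e-05). Trem2, which was lower in the germline comparisons, was 3790, 4310 and 3850 CPM in flox and 4680, 3870, 4840 and 5080 CPM in Cre (0.24, SE 0.184, adjusted p = 0.825 with all libraries). These groups overlapped, and the fitted value was positive. With all 4 Cre libraries the Cd63 change was -0.87 (SE 0.293, adjusted p = 0.345), and it passed without the low-count filter and with limma voom, as did Igf1. In germline IRF8KO mice, the Cd63 change was -0.25 (SE 0.34, adjusted p = 0.718) at 3 months, with overlap, and 1.74 at 9 months. These experiments differed in age, reporter sorting and content, and the differences between them were not tested. Neutrophil sums were 16.7 to 112 CPM in flox and 0.197 to 88.1 CPM in Cre. The border macrophage markers summed to 110 to 147 CPM in flox and 189, 9.45, 5.94 and 11.7 CPM in Cre replicates 1 to 4. Without Cre replicate 1 the border macrophage sums were thus lower in Cre with no overlap, as were the 3 called genes. Dendritic cell sums were also lower with no overlap (19.2 to 21.8 CPM in flox, 11.7, 14.2 and 11.2 CPM in Cre replicates 2 to 4). Astrocyte sums (172 to 199 against 379, 233 and 355 CPM) and monocyte sums (8.93 to 11.1 against 14.2, 13.4 and 17.0 CPM) were higher in these Cre libraries. The part of these cells in the changes was not tested.

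**Figure D4:**
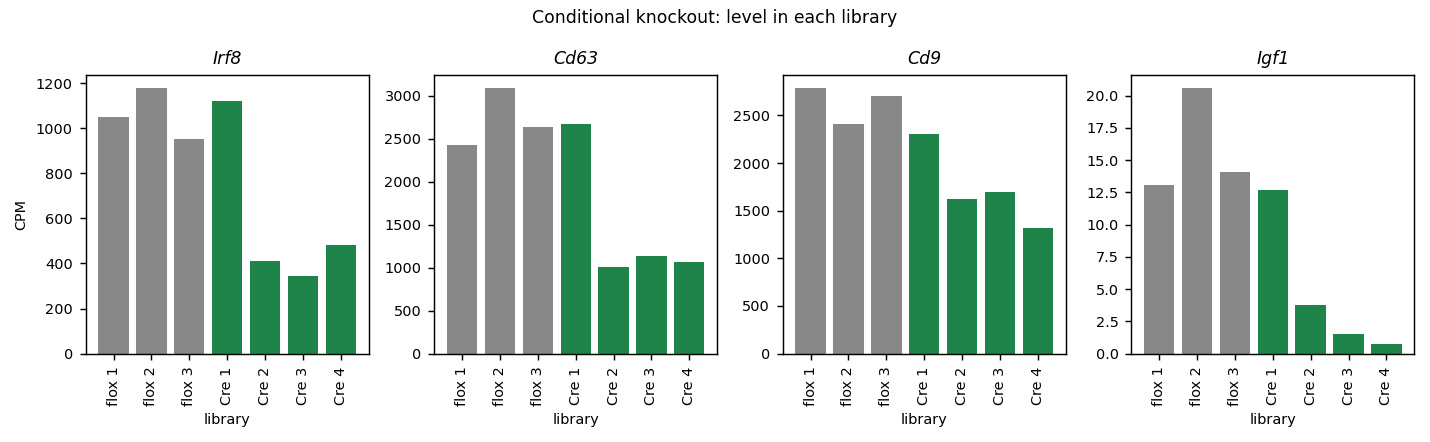
CPM of Irf8, Cd63, Cd9 and Igf1 in each library of the conditional knockout (grey flox, green Cre). Cre replicate 1 has 1120 CPM of Irf8 and 2670 CPM of Cd63, beside 346 to 480 CPM and 1010 to 1140 CPM in the other Cre libraries.

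The rest of the Trem2 pathway was taken as 48 genes: 8 for ligands, shedding and Ms4a proteins, 6 further receptors or partners of the adaptor, 7 inhibitors and 27 kinases and downstream adaptors. Of the 48, 2 rose and 0 fell with 5xFAD where Irf8 was present, against 1.99% of all genes called and 1.81% called higher. Where Irf8 was absent, 0 were called, against 0.164% of all genes. Of the 48, 6 had an unadjusted p under 0.05 there, as did 1853 of all 14604 genes. DESeq2 called 2 there, with 852 genes called in all, and the 33-library model 4, with 1452 in all. Limma voom called 0 genes in all. The 2 with Irf8 were Apoe, the lipid carrier that Trem2 binds (345 ± 71.4 CPM in WT, 5770 ± 2370 CPM in 5xFAD, log2 change 3.98, SE 0.365, adjusted p = 0.000816), and Hcst (DAP10), an adaptor that pairs with Tyrobp (1.76, SE 0.402, adjusted p = 0.0454). The difference between the effects was called for Apoe alone, by -3.80 (SE 0.472, adjusted p = 0.0113). The 27 kinases and adaptors had a median of -0.39 with Irf8 and 0.23 without it, and the 12-library model called 0 in either. Other settings called more of the 48 with Irf8 present. DESeq2 called 4 higher and 2 lower of 47 tested, limma voom 9 and 11 of 48, and the 33-library model 4 and 1. Over all genes, these settings called 826, 3821 and 806. The 6-library model called 10 higher and 16 lower of 43 tested, against 20.8% and 22.7% of all genes.

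With loss of Irf8 at 9 months, 13 of the 48 rose and 12 fell, against 19.6% and 8.68% of all genes. Clu, an apolipoprotein ligand of Trem2, rose by 8.11 (SE 0.697, adjusted p = 9.15e-06), and Lgals3 (galectin-3), another ligand, by 7.31 (SE 0.66, adjusted p = 1.15e-05). Trem1 and Trem3, receptors of the same adaptor that are known from neutrophils and monocytes, had 0 counts in WT and 128 ± 58.1 and 237 ± 38.2 CPM in IRF8KO. Siglech, a microglial receptor that also uses this adaptor, fell by 2.99 (SE 0.294, adjusted p = 2.17e-05), and the inhibitory receptor Sirpa by 2.08 (SE 0.309, adjusted p = 0.000399), while Lilrb4a, another inhibitory receptor, rose by 6.98 (SE 0.724, adjusted p = 3.12e-05). In 5xFAD mice, 16 rose and 6 fell with loss of Irf8 (27.8% of all genes called), and at 3 months 9 rose and 1 fell (7.39% of all genes called). The 9-month counts move with the neutrophil, monocyte, red cell, oligodendrocyte, astrocyte and neuronal sums given above, and Clu is also expressed by astrocytes. The part of these cells was not tested. In Batf3KO, 43 were tested and 3 were called (3.83% of all genes). Lat2, an adaptor of the same chain, fell by 1.66 (SE 0.105, adjusted p = 1.1e-06), Sirpa fell by 0.39 (SE 0.0582, adjusted p = 0.00215) and Clec5a rose by 0.44 (SE 0.106, adjusted p = 0.0349). Of 45 tested in the conditional knockout, 0 were called with all libraries. An unadjusted p under 0.05 was found for 10 of them and for 1407 of all 15512 genes. DESeq2 and limma voom called 1 each, with 160 and 257 genes called in all. Without Cre replicate 1, 7 rose and 5 fell (6.24% of all genes called).

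Other genes of reactive microglia were counted beside the 10. Of 8 early genes, which precede the Trem2-dependent step, 6 rose with 5xFAD where Irf8 was present (1.81% of all genes called higher) and 0 where it was absent (1 at an unadjusted p under 0.05), with medians of 1.57 and 0.21. Of 23 further late genes tested, 7 rose with Irf8 and 0 without it (2 at an unadjusted p under 0.05), with medians of 1.48 and 0.18. All-gene medians were 0 in both. Without Irf8, 0.164% of all genes were called, and 1853 of 14604 had an unadjusted p under 0.05. In the same comparison, DESeq2 called 0 early genes and 1 late gene, lower, with 852 genes called in all. The 33-library model called 1 early gene and 0 late genes, with 1452 in all, and limma voom called 0 genes in all. The late gene Cst7 (cystatin F) had 9.42 ± 2.62 CPM in WT mice and 511 ± 289 CPM in 5xFAD (5.73, SE 0.475, adjusted p = 0.000532). The fitted effect was smaller without Irf8 for 7 of the 8 early genes, 21 of the 23 late genes and 7 of the 10 genes described. The median difference was -1.4, -1.52 and -1.5 for these lists and -0.13 for all genes. Most of all genes thus also had a smaller fitted effect, though by less at the median. The share of all genes was not counted, so these list counts are descriptions only. The difference passed for Apoe, Fth1 (ferritin heavy chain, -2.10, SE 0.302, adjusted p = 0.0212) and Cst7 (-5.35, SE 0.583, adjusted p = 0.0107). WT is the control of one effect and IRF8KO of the other, and IRF8KO already had higher Apoe (33200 ± 8230 CPM) and Lyz2 (16700 ± 6430 CPM) than WT. Other genes of these lists were lower there. In IRF8KO against WT, 4 early genes were called higher and 3 lower, and 9 late genes higher and 5 lower. The part of these control levels in the differences was not tested.

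**Figure D5:**
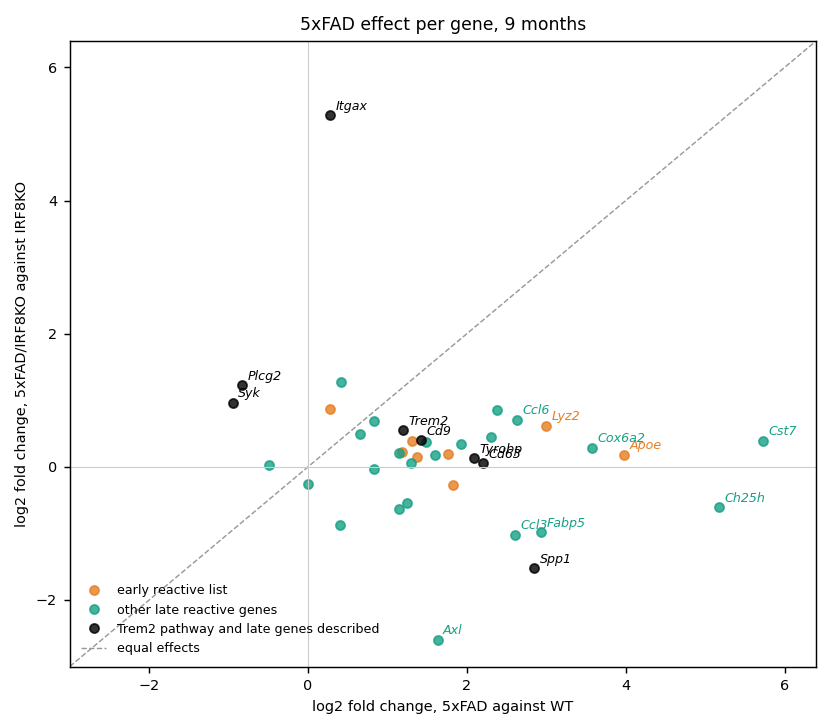
Fitted 5xFAD effect at 9 months with Irf8 (horizontal) and without it (vertical), both as log2 fold change, for the genes described (black), 8 early genes (orange) and 23 other late genes (green); genes with 3 counts or fewer in a group, here Gpnmb and Igf1, are left out. Most points lie below the dashed line of equal effects, as do 7 of the 8 early and 21 of the 23 late genes, while Itgax, Plcg2 and Syk lie above it. Over all genes the median difference between the effects was -0.13, and the share of all genes below the line was not counted.

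Across the 10 group means, the genes did not form 1 pattern. The closest pairs by Pearson's r of mean log2(CPM + 1) over the 10 groups were Syk with Plcg2 (0.896), Tyrobp with Cd63 (0.895), Tyrobp with Cd9 (0.874) and Spp1 with Gpnmb (0.87). Trem2 and Gpnmb had the most negative value, -0.776. The groups share experiments and differ in cell content, so these values are descriptions. In the order of levels, Trem2 was highest in Cre (4620 ± 525 CPM, SD, n = 4) and flox (3980 ± 282 CPM, n = 3) and lowest in IRF8KO at 9 months (291 ± 143 CPM), and 7 of 9 neighbours in that order overlapped. Spp1 was highest in IRF8KO at 9 months (61.9 ± 35.9 CPM) and lowest in WT at 9 months (1.45 ± 1.26 CPM), and all 9 neighbours overlapped. Itgax ranged from 17.5 ± 27.1 CPM in 5xFAD/IRF8KO to 0.436 ± 0.755 CPM in IRF8KO at 9 months, with 8 of 9 neighbours overlapping.

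Over 14059 genes whose mean reached 5 CPM in 1 or more groups, the pattern most like that of Trem2 was that of Ergic3 (r = 0.986), followed by Pdlim4 (0.983) and Tax1bp3 (0.982). For Spp1 they were Tsr2 (0.97), Scimp (0.964) and Ccndbp1 (0.949), and for Itgax Frs3 (0.928), Rabl3 (0.9) and Fbxl12 (0.895). With 10 points from 4 experiments these values carry no test.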

How the data were processed

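RNA from sorted microglia was amplified with SMART-Seq v4 and tagmented with Nextera XT, per the labels' protocols, which name no molecular identifiers. The authors deposited whole-number read counts per gene, 1 file per library, with columns for unstranded counting and for each strand. The submitters' processing notes name mm10, STAR 2.5.2b, Picard 2.17.11, bcl2fastq, Subread and featureCounts, without their roles. The unstranded column was used, since 49.52% to 50.1% of stranded counts lay on the first strand. Counts in genes were 47.3% to 78.6% of all reads. The rest stayed out of library sizes.

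Of 54146 identifiers, 54079 were found in GENCODE M21 (52480 with the same version), which gave symbols and exon lengths. Genes were tested with edgeR 4.0.16 in R 4.3.3 (default low-count filter, TMM, quasi-likelihood test, Benjamini-Hochberg over all genes tested, called at an adjusted p under 0.05), checked on simulated counts. The 12 libraries of 9 months shared 1 model, and the 3-month comparisons were fitted on their own groups. SE was derived from the F statistic. Other scalings, no filter, DESeq2 1.42.0, limma 3.58.1 (voom with quality weights), a replicate block, a Y-linked covariate, all 33 libraries in 1 model and leaving out libraries were alternatives, and leaving out libraries of the 6-library model was added after seeing the data. Replicate numbers did not pair samples. Levels are CPM with TMM factors over all 33 libraries, and counting intervals cover counting error only. Of the 10 genes, those that passed the filter were tested in every comparison. Up to 3 called genes per further list were named, with the largest change and at least 5 CPM in the higher group. The genes and lists were chosen with earlier results of these data known. The protein sequences were not used here.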

Additional observations from a re-analysis of the deposited data

Results flagged for a closer look

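In groups of 4 libraries, 30 sets of values of the 10 genes were tested for a library far from the others (Dixon's rule), which chance marks in about 1 of 20, and 6 were marked. Syk stood high in IRF8KO replicate 1 at 3 months (197 CPM, beside 147 to 155 CPM), and its call was lost without that library. Itgax stood low in IRF8KO replicate 3 at 3 months (1.16 CPM, beside 7.27 to 8.05 CPM). Gpnmb stood high in WT replicate 2 (0.523 CPM) and low in IRF8KO replicate 1 (0.749 CPM) at 3 months, and was detected in a single Cre library, replicate 1 (0.357 CPM, 3 counts). Cd63 stood high in Cre replicate 1 (2670 CPM), the library whose Irf8 level went against its label. For Cd63, the 5xFAD effect also differed between mice with and without Irf8 at 9 months, by -2.15 on the log2 scale in the test of the difference.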

How the results depend on the processing

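Depth limits the genes near the floor: Gpnmb, Igf1, Spp1 and Itgax rest on few counts in WT at 9 months, where 1 library held 605376 counts. The 9-month calls depend on which libraries share the spread. The causes of the changes below were not tested. For the 10 genes, direction and side of the threshold were kept in 493 of 549 values without 1 library and 562 of 624 values under other settings.

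For 5xFAD against WT, the count of all genes called was 163 without the low-count filter, 826 with DESeq2, 3821 with limma voom, 20 with the Y-linked covariate, 806 in the 33-library model and 4546 in the 6-library model. Of the 10 genes, 7 were called with limma voom, 1 with the covariate and 8 in the 6-library model. Leaving out 1 library gave 2 to 102 genes and 0 to 3 of the 10. For 5xFAD/IRF8KO against IRF8KO, 320 genes were called without the filter, 852 with DESeq2, 1452 in the 33-library model (with 2 of the 10) and 0 with limma voom, with the covariate or with the 2 groups alone, and 38 to 140 without 1 library. For the difference between these effects, 41 were called with upper quartile factors, 238 without the filter (3 of the 10), 912 with DESeq2 (5 of the 10), 11 with limma voom (0 of the 10), 1 with the covariate (0 of the 10), 1082 in the 33-library model (4 of the 10) and 2 to 189 without 1 library (0 to 2 of the 10).

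For IRF8KO against WT at 9 months, 6836 genes were called in the 33-library model and 2266 to 4126 without 1 library (4 to 6 of the 10). For 5xFAD/IRF8KO against 5xFAD, the counts were 1482 with the covariate, 6783 in the 33-library model and 2325 to 4055 without 1 library. At 3 months, IRF8KO gave 1655 without the filter, 2583 with DESeq2 (4 of the 10), 1680 with limma voom, 3300 in the 33-library model and 305 to 1128 without 1 library (0 to 3 of the 10). Batf3KO gave 998 without the filter, 814 with DESeq2 and 984 with limma voom (2 of the 10 in both), 10 in the 33-library model (0 of the 10) and 219 to 596 without 1 library. The conditional knockout gave 618 without the filter (3 of the 10), 160 with DESeq2, 257 with limma voom (2 of the 10), 3 in the 33-library model and 0 to 952 without 1 library (0 to 3 of the 10).

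The replicate numbers shared no deviations across all pairs (r from -0.153 to 0.167), so libraries with 1 number are not taken as pairs. With the replicate block, 5xFAD against WT gave 105 genes, the same effect without Irf8 gave 0, the difference gave 9 (0 of the 10), Batf3KO 216, the conditional knockout 1, and IRF8KO at 3 months 1 of the 10. The block ended the calls of Igf1 in 5xFAD (adjusted p = 0.0554), Trem2 at 3 months (0.0519), Gpnmb in IRF8KO (0.0762) and the Cd63 difference (0.0944).

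The scaling moved the balance of calls. With TMM, 264 genes were higher and 26 lower in 5xFAD, with RLE factors 166 and 39, and with upper quartile factors 157 and 37. For the difference it was 28 and 36, against 30 and 18, and 25 and 16. At 3 months it was 545 and 425 in IRF8KO, and 471 and 645 with upper quartile factors. For IRF8KO and for 5xFAD/IRF8KO against 5xFAD at 9 months, and for IRF8KO at 3 months, these factors moved the median of all genes by -0.2, -0.23 and -0.14.

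Changes of sign were all among values that were not called. In 5xFAD/IRF8KO against 5xFAD, Igf1 was -0.06 with upper quartile factors and -1.14 with the covariate, Itgax was -1.22 with limma voom, -0.9 with the block and -0.31 with the covariate, Spp1 was -0.66 with the covariate, and Syk was -1.18 with limma voom. Without 1 library, Igf1 ran from -0.11 to 1.38, Itgax from -1.87 to 1.9, Plcg2 from -0.26 to 0.67 and Syk from -0.26 to 1.28. In 5xFAD/IRF8KO against IRF8KO, Cd63 was -0.03 with RLE factors and with DESeq2, -0.05 with upper quartile factors, -0.12 with the covariate and -0.04 to 0.1 without 1 library, and Syk was -0.31 with limma voom. There, Gpnmb ran from -2.15 to 0.58 and Tyrobp from -0.05 to 0.47 without 1 library. Tyrobp in IRF8KO against WT at 9 months ran from -0.04 to 0.55. Itgax was -0.04 in 5xFAD with limma voom, and in IRF8KO at 3 months it was 0.62 with limma voom, 0.13 with the block and -0.82 to 0.42 without 1 library. In Batf3KO, Cd63 was -0.01 with limma voom, -0.04 in the 33-library model and -0.04 to 0.06 without 1 library. In the conditional knockout, Syk was -0.0 with upper quartile factors, -0.01 with the block and -0.12 to 0.16 without 1 library.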

Other observations

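The early and late reactive genes also changed in comparisons given above for the 10 genes only. With loss of Irf8 at 9 months, 4 of 8 early genes rose and 3 fell, and 9 of 23 late genes rose and 5 fell, against 19.6% of all genes called higher and 8.68% lower. Lyz2, which encodes lysozyme, rose by 6.51 (SE 0.475, adjusted p = 3.26e-06), Lgals3 by 7.31 and Fabp5, a fatty acid carrier, by 5.91 (SE 0.905, adjusted p = 0.000499). In 5xFAD mice, loss of Irf8 went with 2 early genes higher and 4 lower, and with 4 late genes higher and 7 lower (27.8% of all genes called). There, Ctsd (cathepsin D) fell from 15400 ± 516 CPM to 3920 ± 217 CPM (SD, n = 3 each; -2.08, SE 0.311, adjusted p = 0.000451), and the chemokine Ccl3 from 189 ± 101 CPM to 11.5 ± 6.77 CPM (-4.13, SE 0.673, adjusted p = 0.000816). The summed neutrophil, monocyte, red cell, oligodendrocyte, astrocyte and neuronal markers were higher in the same groups without Irf8, and their part was not tested.

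At 3 months, 1 early gene rose and 1 fell in IRF8KO, and 4 late genes rose and 6 fell (7.39% of all genes called). Clec7a, the receptor dectin-1, went from 27.7 ± 14.2 CPM to 221 ± 17.5 CPM (SD, n = 4 each; 2.93, SE 0.415, adjusted p = 0.00249). The part of the other cells whose sums at 3 months are given above was not tested. In Batf3KO, 4 of 22 late genes rose and 2 fell (3.83% of all genes called). The 33-library model called 0 of 23 (2 had an unadjusted p under 0.05), with 10 genes called in all. Clec7a rose there from 2.24 ± 0.848 CPM to 14.8 ± 0.836 CPM (SD, n = 3 each; 2.79, SE 0.268, adjusted p = 4.88e-05), while the chemokine Ccl6 fell from 248 ± 16.3 CPM to 92.3 ± 6.96 CPM (-1.37, SE 0.0915, adjusted p = 1.46e-06). In the conditional knockout, 0 of 8 early and 0 of 22 late genes passed in edgeR (4 and 6 had an unadjusted p under 0.05). Limma voom called 2 and 5 and DESeq2 1 and 3, with 257 and 160 genes called in all. Without Cre replicate 1, 1 early gene rose and 2 fell, and 4 late genes rose and 7 fell (6.24% of all genes called).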
